A study of Mus musculus with 2 samples.

Results

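The 10 genes of the core circadian clock and its output were read in the mouse adrenal gland: Per1, Per2, Per3, Cry1, Cry2, Arntl, Clock, Npas2, Ciart and Dbp. They were chosen by symbol from the gene and transcript tables, and all 10 were found among 22015 nuclear protein-coding genes (55536 annotated genes in all), with 47 annotated transcripts. Total RNA from adrenal glands of male B6CASTF1/J mice, first-generation offspring of a C57BL/6J by CAST/EiJ cross, was sequenced at 14 days of age in 2 libraries of 300 ng each. These are biological replicates 1 and 2 of 1 group, so the design holds no comparison of conditions and no test was run. Both carry the same donor record, and their pool of males has the same number in one label field and different numbers in another, with the wording 3x Males left unexplained, so the spread may not span separate animals. The labels used here give no time of day of collection.

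The circadian clock is a transcriptional feedback loop found in most cells. Arntl (also called Bmal1) pairs with Clock or its paralog Npas2 and activates genes through E-box elements, among them the Per and Cry genes, whose proteins then repress that pair, and Dbp, a PAR bZIP factor that passes the rhythm on through D-box elements. Rev-erb repressors and ROR activators act on Arntl through nuclear receptor elements and form a second loop. In rhythmic tissues Arntl RNA and the RNA of E-box targets such as Dbp and Nr1d1 peak at opposite times of day, and the adrenal clock is known for gating the daily rhythm of glucocorticoid release.

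The elements through which the loop closes were looked for in RefSeq promoter windows on GRCm38.p6 (the assembly also called mm10), each reaching from 250 bases before to 50 bases after a transcription start. Windows were found for 9 of the 10 genes, 13 windows in all. Per2 had no window, so its promoter was not searched. Both strands were searched for the E-box CACGTG, the D-box TTANGTAA, the nuclear receptor core AGGTCA and the cyclic AMP response element TGACGTCA. The core AGGTCA is only part of a full nuclear receptor element, whose remaining bases were not searched for. The 250 upstream bases of the 4 genes that held an E-box or a D-box are shown 5′ to 3′ because they carry the sequence through which the activator pair and Dbp are known to act, with every motif match in capitals.
Per1, chr11:69098699-69098948, plus strand: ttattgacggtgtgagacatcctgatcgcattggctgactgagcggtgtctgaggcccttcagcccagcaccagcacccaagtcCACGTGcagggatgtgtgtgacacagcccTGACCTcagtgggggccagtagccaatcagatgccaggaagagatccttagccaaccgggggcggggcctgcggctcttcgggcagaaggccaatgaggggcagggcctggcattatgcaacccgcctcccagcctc
Cry1, chr10:85185055-85185304, minus strand: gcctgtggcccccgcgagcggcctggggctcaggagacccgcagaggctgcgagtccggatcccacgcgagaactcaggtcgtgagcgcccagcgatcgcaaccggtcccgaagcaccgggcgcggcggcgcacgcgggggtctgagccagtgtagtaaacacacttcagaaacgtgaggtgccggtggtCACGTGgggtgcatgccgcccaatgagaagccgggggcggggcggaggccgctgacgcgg
Ciart, chr3:95882229-95882478, minus strand: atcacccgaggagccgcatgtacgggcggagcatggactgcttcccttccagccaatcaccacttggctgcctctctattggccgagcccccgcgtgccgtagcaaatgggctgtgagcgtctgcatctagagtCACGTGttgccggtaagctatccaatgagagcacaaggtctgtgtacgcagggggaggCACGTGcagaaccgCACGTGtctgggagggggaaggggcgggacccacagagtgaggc
Per3, chr4:151044666-151044915, minus strand: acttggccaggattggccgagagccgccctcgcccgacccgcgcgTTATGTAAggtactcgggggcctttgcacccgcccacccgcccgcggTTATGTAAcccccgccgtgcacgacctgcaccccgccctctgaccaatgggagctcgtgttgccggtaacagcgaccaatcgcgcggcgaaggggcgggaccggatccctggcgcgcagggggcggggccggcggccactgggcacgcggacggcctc
The stretch of Per1 lies before the start of its main transcript, Per1-201, and in an intron of Per1-202, which starts farther upstream.

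The E-box was present in 3 of 9 genes, against 8.09% of the 27025 genes and 7.15% of the 32851 windows of the same length. Its match in Per1 began 166 bases and that in Cry1 60 bases upstream of the start. Ciart, which encodes a repressor of the activator pair, held 3 E-boxes, at 116, 58 and 44 bases upstream. Of all windows 0.0883% held 3 or more. The D-box was present in 1 gene, Per3, as 2 copies of TTATGTAA at 205 and 158 bases upstream. Of all genes 2.72% held any copy, and of all windows 0.198% held 2 or more. The cuts of 3 and 2 copies were not planned. They are the numbers found in Ciart and Per3, so these shares of windows only describe the matches. The nuclear receptor core was present in windows of Per1, Clock and Arntl, against 18.1% of genes. It lay 137 bases upstream in Per1 and 119 bases upstream in Clock, on the opposite strand, and 31 bases downstream in Arntl. The Clock match lay at a RefSeq start inside the gene. The windows at the starts of its main forms, Clock-201 and Clock-205, held none. The Arntl match was likewise absent from the window at the start of its main form, Arntl-201. The cyclic AMP response element was found in 0 of the 9 genes and in 2.03% of all genes. No matches overlapped one another. A match describes these letters and not binding of a factor.

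Levels are given as RSEM TPM, a transcript's share of the library that is corrected for its length and the library's depth. The libraries held 32963248 and 36260745 expected counts, of which the clock genes took 12066 and 13677. ERCC spike-ins took 0.311% and 0.323%. Adrenal cortex markers (6 of 6) and chromaffin cell markers (5 of 5) were above 1 TPM in both libraries, and their summed TPM was 4298 and 4748 for cortex and 1305 and 1336 for chromaffin cells in replicates 1 and 2. The libraries differed in other tissue. Summed TPM of 8 hepatocyte markers was 240.7 and 4242, with all 8 over 2-fold higher in replicate 2. That of 8 lymphocyte markers was 77.0 and 10.3, with all 8 over 2-fold higher in replicate 1. Of 12535 nuclear protein-coding genes averaging 1 TPM or more, 3.33% were over 2-fold higher in replicate 2 and 2.34% in replicate 1. The marker lists were chosen with earlier results of these data known. Adipocyte markers summed to 2803 and 2845, and of 4 kidney markers 0 reached 1 TPM, with Umod and Slc12a1 at 0. In such bulk tissue fewer cells of a type and less RNA per cell cannot be told apart.

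The clock genes were of middling abundance and covered a wide range. Their median level was 9.47 TPM, or 9.67 TPM without Ciart, which averaged under 1 TPM, against 8.28 TPM for the 12535 nuclear protein-coding genes that averaged 1 TPM or more, whose quartiles were 3.63 and 18.0 TPM. Of the 10 genes, 9 reached 1 TPM in both libraries, and Ciart did not. Per1 stood above 87.0% of the 12535 genes, whereas Npas2 stood above 10.7%. The summed TPM of the 10 genes was 98.2 in replicate 1 and 98.86 in replicate 2.

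**Figure D1:**
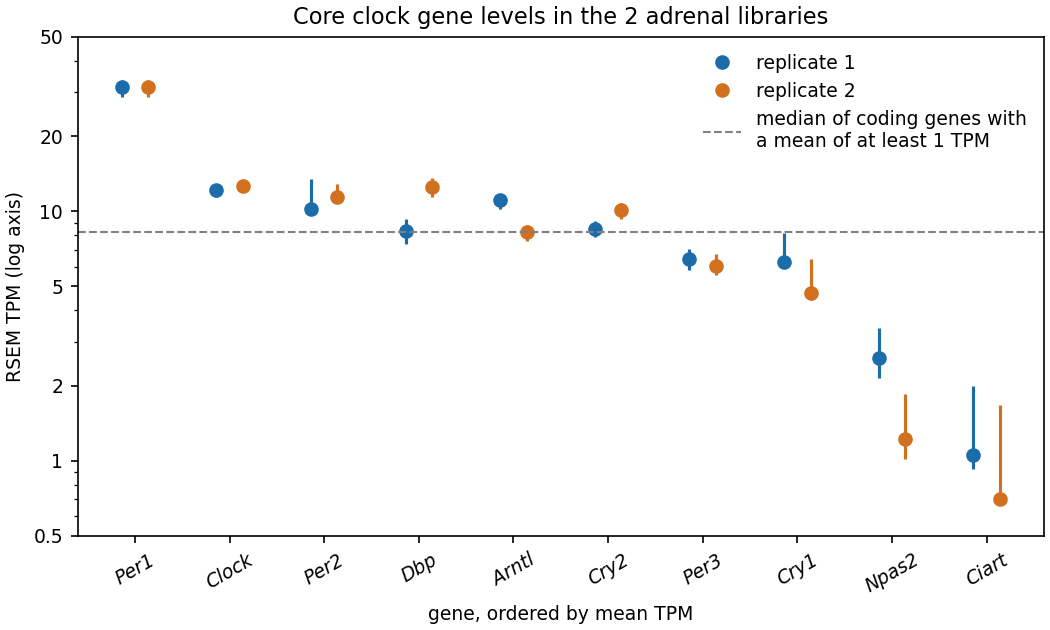
Level of each clock gene in RSEM TPM (log axis) in replicate 1 (blue) and replicate 2 (orange), with the deposited credibility bounds as vertical lines and the median of coding genes averaging 1 TPM or more as a dashed line at 8.28 TPM. Per1 stands highest at 31.55 and 31.35 TPM, and Npas2 and Ciart lie lowest.

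Among the activators, Clock, a bHLH-PAS factor, was the most abundant. It stood at 12.21 TPM in replicate 1 and 12.65 in replicate 2, 12.43 ± 0.311 (SD, n = 2), from 2702 and 3068 counts, and its credibility bounds overlapped (11.4 to 12.7 and 11.9 to 13.1). The gene lies on mm10 chromosome 5 from 76209868 to 76304792 on the minus strand (ENSMUSG00000029238.11). Clock was the steadiest of the 3 activators between the libraries.

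Arntl, the shared partner of Clock and Npas2, stood at 11.09 TPM in replicate 1 and 8.25 in replicate 2, 9.67 ± 2.01 (SD, n = 2). Replicate 1 was 1.34-fold higher, a log2 difference (replicate 2 over replicate 1, with 0.1 TPM added) of -0.42, and the bounds of 10.2 to 11.7 and 7.62 to 8.82 TPM did not overlap. Arntl (ENSMUSG00000055116.8) spans 113207465 to 113314126 on the plus strand of chromosome 7. By kallisto, the second deposited quantification, the difference was -0.44.

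Npas2, which can stand in for Clock, was much lower, at 2.59 TPM in replicate 1 and 1.22 in replicate 2, 1.905 ± 0.969 (SD, n = 2), from 237 and 142 counts. Replicate 1 was 2.04-fold higher, the log2 difference of -1.03 was lower than that of all but 2.26% of the 12535 genes, and the bounds of 2.14 to 3.39 and 1.01 to 1.85 TPM did not overlap. Npas2 (ENSMUSG00000026077.15) lies on chromosome 1 from 39193731 to 39363236, plus strand. The size of the Npas2 difference over the whole gene depended on the quantification, and was -0.52 by kallisto. From counts scaled with TMM factors it was -0.78, with a 95% interval of -1.09 to -0.47 that covers counting error only. The main transcript, Npas2-201, was lower in replicate 2 by both quantifications. In replicates 1 and 2 it stood at 1.66 and 0.94 TPM by RSEM and at 2.51 and 1.38 by kallisto. Npas2 was higher in replicate 1 in all 7 alternative settings, by at least 0.52 on the log2 scale, yet past 2-fold only in the deposited TPM with 0.1 TPM or nothing added.

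Per1, a PAS-domain repressor whose gene is also induced acutely by cyclic AMP and glucocorticoids, was the most abundant of all 10. It stood at 31.55 TPM in replicate 1 and 31.35 in replicate 2, 31.45 ± 0.141 (SD, n = 2), with 3266 and 3854 counts. The libraries lay within each other's bounds (28.6 to 33.7 and 28.6 to 33.4 TPM). Per1 (ENSMUSG00000020893.17) spans 69095217 to 69109960 on the plus strand of chromosome 11. The direction of its small difference turned with the setting: it was -0.0091 on the log2 scale in the deposited TPM, 0.094 by kallisto and 0.20 with TMM factors.

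Per2, the paralog with the strongest rhythm defect when lost, stood at 10.21 and 11.41 TPM in replicates 1 and 2, 10.8 ± 0.849 (SD, n = 2). Its bounds, 9.76 to 13.4 and 10.8 to 12.8 TPM, overlapped, and its log2 difference was 0.16. Per2 (ENSMUSG00000055866.9) lies on chromosome 1 from 91415982 to 91459324, minus strand. Per3, the paralog least needed for rhythm, stood at 6.46 and 6.03 TPM, 6.245 ± 0.304 (SD, n = 2), with overlapping bounds of 5.82 to 7.05 and 5.54 to 6.73. Its log2 difference was -0.098 in TPM and 0.060 with TMM factors. Per3 (ENSMUSG00000028957.12) spans 151003652 to 151044665 on the minus strand of chromosome 4.

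The cryptochromes, repressors related to photolyases that bind the activator pair, leaned in opposite directions. Cry1 stood at 6.24 TPM in replicate 1 and 4.69 in replicate 2, 5.465 ± 1.10 (SD, n = 2), and its bounds of 5.93 to 8.21 and 4.42 to 6.41 TPM overlapped. Its log2 difference was -0.40 in TPM and -0.38 with TMM factors, where the counting interval ran from -0.56 to -0.20 (575 and 455 counts). Cry2 stood at 8.48 TPM in replicate 1 and 10.07 in replicate 2, 9.275 ± 1.12 (SD, n = 2), with bounds of 7.86 to 9.14 and 9.34 to 10.8 that lay apart. Its log2 difference was 0.25. Cry1 (ENSMUSG00000020038.10) lies on chromosome 10 from 85131700 to 85185064 and Cry2 (ENSMUSG00000068742.11) on chromosome 2 from 92403646 to 92434043, both on the minus strand.

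Ciart (also called Chrono) was the lowest, at 1.05 TPM in replicate 1 and 0.70 in replicate 2, 0.875 ± 0.247 (SD, n = 2), from 41 and 33 counts. Its bounds, 0.93 to 2.00 and 0.68 to 1.67 TPM, overlapped, and at this depth the counting interval of its TMM-scaled log2 difference ran from -1.06 to 0.34. Ciart (ENSMUSG00000038550.10) spans 95878503 to 95882251 on the minus strand of chromosome 3. Of its 31-base words, 20.8% also occur in the processed pseudogene Gm9176, to which 0 counts were assigned in both libraries, so the split of reads between these copies is uncertain.

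Dbp, the output factor, differed in the direction opposite to Arntl. It stood at 8.32 TPM in replicate 1 and 12.49 in replicate 2, 10.4 ± 2.95 (SD, n = 2), from 400 and 683 counts. Replicate 2 was 1.495-fold higher, a log2 difference of 0.58 at the upper edge of the central 5th to 95th percentile band of the 12535 genes (-0.63 to 0.58), and the bounds of 7.39 to 9.32 and 11.4 to 13.6 TPM did not overlap. By kallisto the difference was 0.40, and with TMM factors 0.73, with a counting interval of 0.55 to 0.91. Dbp (ENSMUSG00000059824.12) lies on chromosome 7 from 45705088 to 45710203, plus strand. It shares 539 of its 2993 exonic bases (18.0%) with Sphk2 on the opposite strand, a gene at 9.15 and 8.73 TPM, and whether the counting used strand is not given in the sources used here.

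Ordered by mean level the genes ran Per1, Clock, Per2, Dbp, Arntl, Cry2, Per3, Cry1, Npas2, Ciart, and kallisto gave the same order. The ranges of the libraries overlapped between neighbours from Per2 through Dbp and Arntl to Cry2, and between Per3 and Cry1, so these neighbours did not differ beyond their spread. They did not overlap between Per1 and Clock, Clock and Per2, Cry2 and Per3, Cry1 and Npas2, or Npas2 and Ciart. The deposited bounds were less clear for some of these pairs. Those of Clock and Per2 overlapped in both libraries. In replicate 2 those of Npas2 (1.01 to 1.85 TPM) and Ciart (0.68 to 1.67 TPM) overlapped too. The range of Dbp, the widest among the genes above 5 TPM, also overlapped that of Clock.

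Read against all coding genes, the clock genes as a list had a similar median difference between the libraries but a larger median absolute difference. Their median log2 difference was -0.05 over all 10 and -0.0091 over the 9 that averaged 1 TPM or more, against -0.07 for the 12535 genes, which all met that minimum. The median absolute difference was 0.32 over all 10 and 0.25 over the 9, against 0.16. Of the 10, 4 were higher in replicate 2, as were 37.2% of the 12535 genes. Of the 9 clock genes that averaged 1 TPM or more, 1 (Npas2) was over 2-fold higher in replicate 1, against 2.34% of the 12535 genes, and 0 were over 2-fold higher in replicate 2, against 3.33%. Bounds lay apart with replicate 2 higher for Cry2 and Dbp, 2 genes, against 8.90% of the 12535, and with replicate 1 higher for Arntl and Npas2, 2 genes, against 11.6%. Bounds of the other 6 clock genes overlapped. The higher hepatocyte markers in replicate 2 and lymphocyte markers in replicate 1 moved with these differences, and their part in them was not tested.

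**Figure D2:**
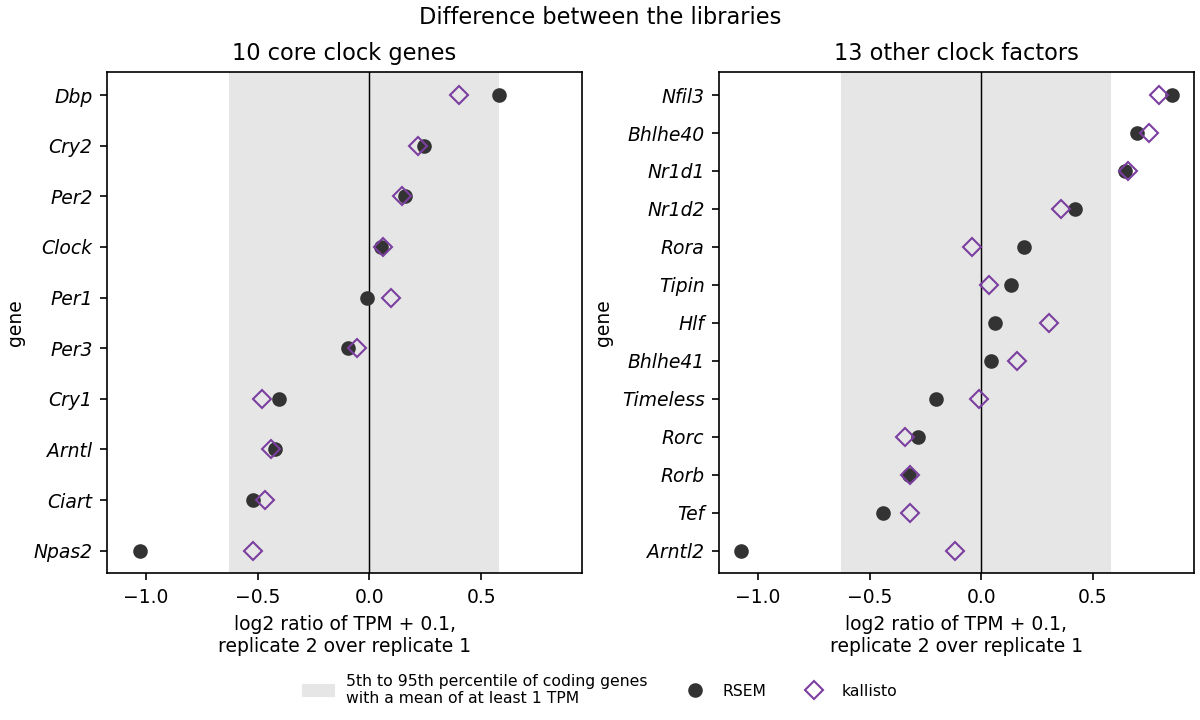
Log2 ratio of TPM plus 0.1, replicate 2 over replicate 1, for the clock genes (left) and for further clock factors (right), from RSEM (filled circles) and kallisto (open diamonds), beside the central band of coding genes from -0.63 to 0.58. Npas2 lies left of the band at -1.03 by RSEM but not by kallisto (-0.52), and Dbp lies at its right edge at 0.58.

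Scaling turned the sign of the smallest differences. The median over all genes was -0.07 in TPM, 0.013 with TMM factors and -0.14 with ERCC scaling. Per2, Cry1, Cry2, Arntl, Npas2, Ciart and Dbp kept the sign of their difference in all 7 alternative settings. Per3 turned with TMM factors, and Clock turned with ERCC scaling, to -0.01. Per1 kept its sign in 3 of 7. With TMM factors the counting intervals of Per1 (0.13 to 0.27), Per2 (0.15 to 0.32) and Clock (0.067 to 0.22) lay above 0, although their credibility bounds overlapped. These intervals cover counting error only.

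Ratios within a library compare genes on the length-corrected scale and do not depend on the scaling between libraries. Arntl and Clock were nearest to each other in replicate 1, where their log2 ratio was -0.14, and farther apart in replicate 2, at -0.62, with a mean of -0.38 ± 0.338 (SD, n = 2). Clock exceeded Npas2 by 2.24 in replicate 1 and 3.37 in replicate 2 on the log2 scale, 6.99-fold on average. Per1 exceeded Per2 by 1.63 and 1.46, which is 2.91-fold, with an SD of 0.120. By kallisto the ratio of Per1 to Per2 was smaller, 1.12 on the log2 scale. Per3 lay below Per2 in both libraries, at -0.66 and -0.92.

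The cryptochromes, and output against activator, were compared in the same way. Cry2 exceeded Cry1 by 0.44 in replicate 1 and 1.10 in replicate 2, 0.77 ± 0.467 (SD, n = 2). Dbp was below Arntl in replicate 1, with a log2 ratio of -0.41, and above it in replicate 2, at 0.60, so the mean of 0.09 ± 0.716 had no shared direction. The ratio of Nr1d1, a Rev-erb repressor of Arntl, to Arntl behaved alike, at -0.34 and 0.74. Both of these ratios share Arntl as their denominator, and both changed sides by kallisto as well, where Dbp to Arntl was -0.40 and 0.45. The change of side was not particular to Dbp and Nr1d1. Per2 (10.21 and 11.41 TPM) and Cry2 (8.48 and 10.07 TPM) also crossed Arntl (11.09 and 8.25 TPM). The remaining clock genes stayed on 1 side of Arntl.

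**Figure D3:**
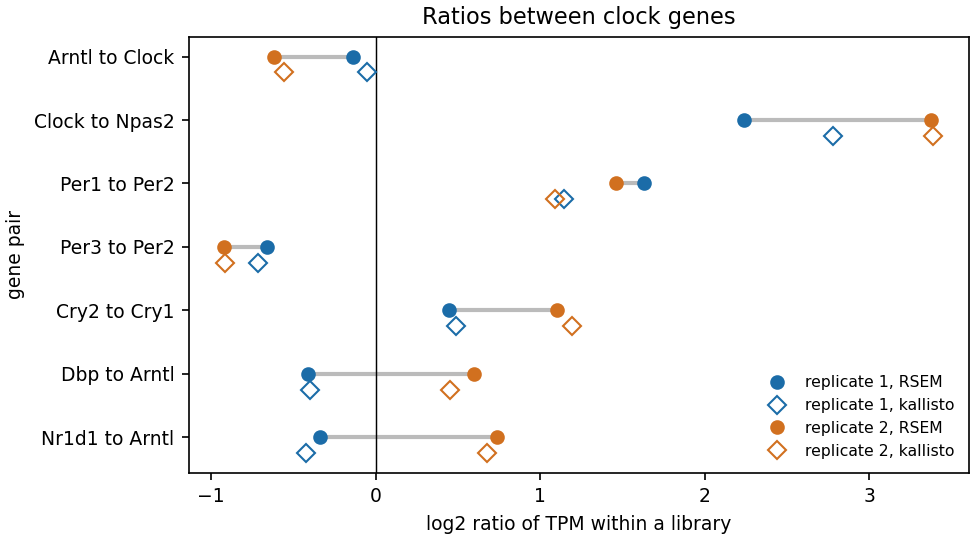
Log2 ratio of the TPM of paired clock genes within each library, from RSEM (filled circles, joined by a grey line) and kallisto (open diamonds), for replicate 1 (blue) and replicate 2 (orange). Ratios of Dbp and Nr1d1 to Arntl fall on opposite sides of 0 in the libraries, while Per1 exceeds Per2 in both.

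The transcript tables show which forms of each gene carried the RNA. For the 12512 coding genes with transcript values, the median share of TPM on protein-coding transcripts was 89.6% in replicate 1 and 90.8% in replicate 2, and more than 10% lay on transcripts with a retained intron in 30.6% and 27.8% of genes. Per2 was carried by 1 transcript, Per2-201 of 5833 bases, which took 100% in both libraries. Cry1-201 took 95.04% and 91.9% of Cry1. Cry2-201 took 77.6% and 79.6% of Cry2, and Cry2-202, which encodes the same 592 residues, 11.4% and 8.75%.

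Clock was split over several long forms. Clock-201 of 7478 bases took 37.6% in replicate 1 and 41.4% in replicate 2, and Clock-205 of 9744 bases, which also encodes 855 residues, 29.6% and 26.8%. Clock-204, of 854 residues, starts at position 76274012 inside the gene and took 12.3% and 14.5%. Retained-intron forms of Clock took 15.1% ± 0.312 (SD, n = 2).

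Arntl-201, of 626 residues, took 65.5% of Arntl in replicate 1 and 75.9% in replicate 2. Arntl-206 encodes 633 residues and starts downstream at position 113234623. It took 16.3% in replicate 1 and 4.72% in replicate 2, with 140.6 and 32.5 counts, and kallisto gave a similar gap, 21.3% and 6.22%. The TPM of Arntl-206 was 1.81 and 0.39, and that of Arntl-201 7.26 and 6.28, so both forms were lower in replicate 2. By kallisto Arntl-206 stood at 3.54 and 0.76 TPM and Arntl-201 at 10.3 and 9.71. The larger drop was thus in the minor form Arntl-206, which made up much of the difference over the whole gene.

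Retained-intron forms are annotated for Per3, Dbp, Clock, Arntl and Cry1. They took 32.0% of Per3 in replicate 1 and 27.2% in replicate 2, and Per3-201, the only protein-coding form, took 56.5% and 65.9%. In Dbp they took 27.6% in replicate 1 and 12.3% in replicate 2. The gap came with Dbp-202, at 16.1% and 4.33% from 31.4 and 13.8 counts, while the coding Dbp-201 of 325 residues was at 4.81 TPM in replicate 1 and 8.11 in replicate 2. Kallisto gave 33.5% and 12.7% for the retained introns of Dbp. Arntl had 10.8% ± 2.61 (SD, n = 2) on such forms and Cry1 6.53% ± 2.22, and Per1, Per2, Cry2, Npas2 and Ciart have no transcript of that type in the annotation, which fixes their share at 0.

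**Figure D4:**
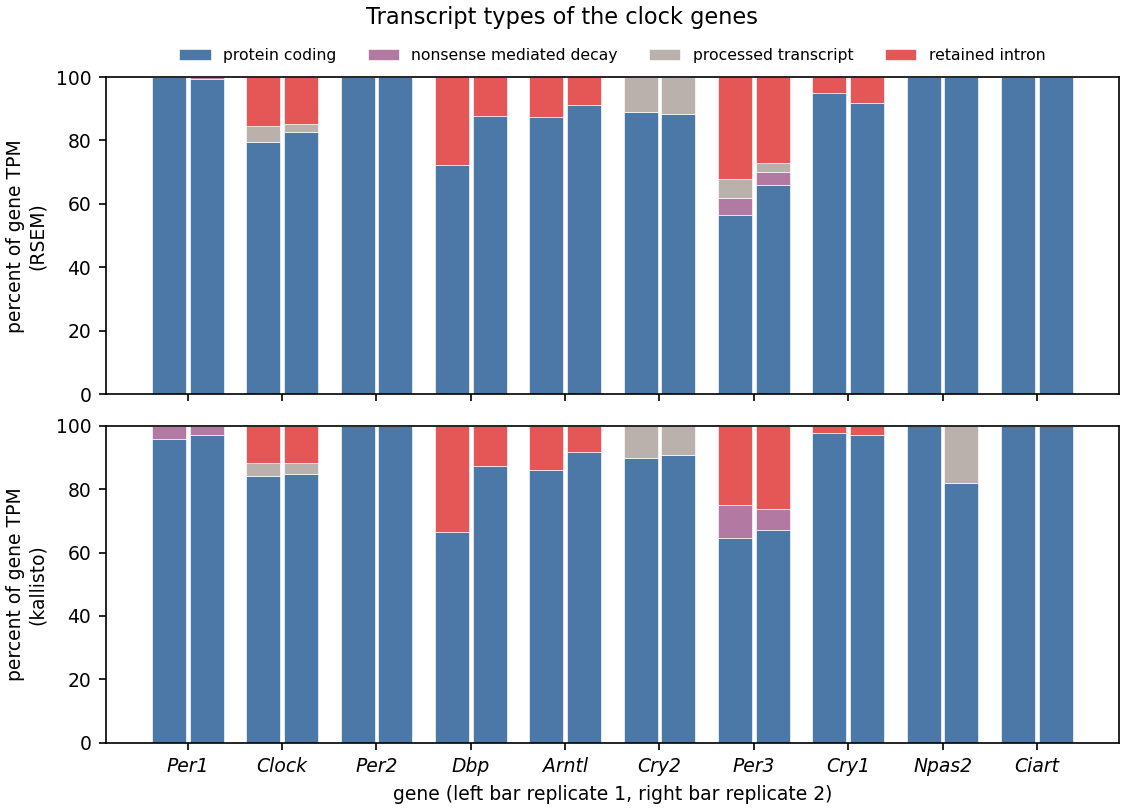
Percent of each clock gene's TPM on transcripts of each annotated type, from RSEM (top) and kallisto (bottom), with replicate 1 as the left and replicate 2 as the right bar of each gene. By RSEM retained introns (red) took 32.0% and 27.2% of Per3 and 27.6% and 12.3% of Dbp, and no such transcript is annotated for Per1, Per2, Cry2, Npas2 and Ciart.

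The quantifications were farthest from their usual relation for Per1 and Npas2, in each of which RSEM placed much of the TPM on a short transcript. Over 12505 coding genes kallisto gave a median of 1.52-fold the RSEM value (log2 0.60), and among the clock genes the log2 ratio ran from 0.12 for Per1 to 0.64 for Ciart. Only 2.68% of genes had a ratio below that of Per1, and 4.33% one below that of Npas2. Per1-204, of 496 bases, took 29.7% and 23.1% of the RSEM TPM of Per1 and 0 by kallisto. Npas2-203, of 484 bases, took 36.2% and 23.0% by RSEM, from 11.8 and 3.90 counts, and 0% and 1.46% by kallisto. Npas2-202, a non-coding form of 474 bases, took 0% and 18.0% of Npas2 by kallisto and 0 by RSEM. Without transcripts under 500 bases, a setting chosen after seeing the data, Per1 stood at 23.2 TPM and Npas2 at 1.30 TPM. In that setting the log2 difference of Npas2 was -0.76 and that of Per1 0.12, against -0.0091 with all transcripts. By RSEM Per1-204 was lower in replicate 2, at 9.37 and 7.24 TPM, and Per1-201 higher, at 15.59 and 18.64. By kallisto Per1-201, of 1291 residues, carried 70.6% and 70.7% of Per1.

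The genes around the core loop give the context of these differences. For comparison, of the 12535 genes 37.2% were higher in replicate 2 and 62.5% in replicate 1, bounds lay apart toward replicate 2 for 8.90% and toward replicate 1 for 11.6%, and the median log2 difference was -0.07. Lists were counted whole, and the highest member of each is named together with members past 2-fold. Of 5 Rev-erb and ROR receptors 4 reached 1 TPM in both libraries, and 3 were higher in replicate 2. Bounds lay apart toward replicate 2 for 2 of the 5 (8.90% of the 12535 genes) and toward replicate 1 for 1 (11.6%). The highest was Rora, an activator of Arntl, at 13.34 and 15.26 TPM in replicates 1 and 2. The Rev-erbs Nr1d1, at 8.77 and 13.76 TPM, and Nr1d2, at 9.90 and 13.26 TPM, were the 2 with bounds apart toward replicate 2 and were singled out after their values were seen. Their log2 differences were 0.64 and 0.42.

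Among 3 PAR bZIP factors and their competitor, which share D-box sites with Dbp, all were above 1 TPM. Tef, a paralog of Dbp, was the highest at 26.22 TPM in replicate 1 and 19.27 in replicate 2, and its bounds lay apart in the direction opposite to Dbp. Nfil3, which represses through the same sites and was named after its values were seen, stood at 13.08 and 23.73 TPM. Of 5 bHLH repressors and other partners 4 reached 1 TPM in both libraries. The highest, Bhlhe40, which competes at E-boxes, stood at 17.90 TPM in replicate 1 and 29.08 in replicate 2, the only one of its list with bounds apart. Arntl2, a paralog of Arntl that lay below 1 TPM and was named after its values were seen, was 2.11-fold higher in replicate 1 by RSEM, from 39 and 31 counts, with overlapping bounds and a log2 difference of -0.12 by kallisto.

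The enzymes that modify clock proteins differed little between the libraries. Of 10 kinases, ubiquitin ligases and a deubiquitinase 9 reached 1 TPM in both libraries and 8 were higher in replicate 1, as were 62.5% of the 12535 genes, and their median log2 difference was -0.10, against -0.07. Csnk1a1, a casein kinase, was the highest at 74.13 and 69.42 TPM. Of 6 clock-controlled output genes 3 were higher in each library, with bounds of 2 apart toward replicate 2 (8.90% of the 12535 genes) and of 3 toward replicate 1 (11.6%), Tsc22d3 among the latter. Alas1, of haem synthesis, was the highest at 352.9 and 521.4 TPM.

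Immediate early genes and glucocorticoid targets differed between the libraries in 1 direction each. Both lists, like the others here, were chosen with earlier results of these data known, so their counts describe these libraries only. All 8 immediate early genes were higher in replicate 2 with bounds apart, against 8.90% of the 12535 genes with bounds apart that way, and their median log2 difference was 0.72, against -0.07. Of the 8, 3 were over 2-fold higher, against 3.33%. Nr4a1 was the highest, at 95.07 TPM in replicate 1 and 183.4 in replicate 2, and past 2-fold were Junb, at 15.52 and 56.97 TPM, Fos, at 3.15 and 10.68, and Fosb, at 0.55 and 6.04, the latter below 1 TPM in replicate 1 and named after its values were seen. The bounds of Per1, which is itself inducible by cyclic AMP, overlapped. Its log2 difference was -0.0091 in TPM and 0.20 with TMM factors, where the counting interval ran from 0.13 to 0.27. All 4 glucocorticoid targets were higher in replicate 1, with the bounds of 3 apart (11.6% of the 12535 genes) and a median log2 difference of -0.47, against -0.07. Tsc22d3, which both this list and the output list hold, is counted in each. The highest was Sgk1 at 51.21 and 46.75 TPM. The part of these differences in those of the clock genes was not tested.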

How the data were processed

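Genes and transcripts of the 2 libraries were quantified on mm10 and GENCODE M21, as the deposited file list states. The authors deposited expected counts and TPM, computed over all entries with spike-ins included, under column names that RSEM writes, per the file headers. Lower and upper credibility bounds of TPM, treated as a signal because the bounds, unlike TPM itself, have no fixed sum, and the percent of a gene's TPM on each transcript were deposited too, per the file headers. The sources used here give neither the coverage of these bounds nor the aligner and versions. Estimated counts and TPM of a second quantification carry kallisto's column names, per the file headers, and were summed here to genes. Reads of CAST alleles were assigned on the mm10 sequence, whose effect on the clock genes was not tested.

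The clock genes and all lists were chosen with earlier results of these data known. All 10 clock genes were named, and from each pathway list its highest gene and those past 2-fold, among genes at 1 TPM or more in both libraries. Log2 differences used a pseudocount of 0.1 TPM, which understates the change of low genes. Background shares cover nuclear protein-coding genes that averaged 1 TPM or more. With 1 group no test was run. TMM factors came from edgeR 4.0.16 in R 4.3.3 on 16966 genes with at least 10 counts, with exact 95% intervals for counting error only. Other steps used numpy 2.4.6, pandas 2.3.3, matplotlib 3.10.9 and scipy 1.17.1 in Python 3.11.15. Tested on simulated counts of 8404 genes averaging 5 TPM or more and a coefficient of variation of 0.1, the fold step called 100% of 200 genes changed 4-fold and 0% of unchanged genes. This checked the code only, because 4-fold changes at that spread pass a 2-fold cut by design. It gives no error rate for these libraries, nor for genes under 5 TPM such as Npas2. Alternatives were a second quantification, posterior mean TPM, other pseudocounts, minimums and scalings, leaving out each replicate, and leaving out transcripts under 500 bases, the last added after seeing the data. Protein identity between paralogs had been planned and was not analysed here.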

Additional observations from a re-analysis of the deposited data

How the results depend on the processing

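The count of clock genes over 2-fold apart rested on Npas2: it was 1 with a pseudocount of 0.1 TPM or none, and 0 with a pseudocount of 1 TPM, TMM factors, ERCC scaling, kallisto, posterior mean TPM or without transcripts under 500 bases. Among genes averaging 5 TPM or more, 0.481% were over 2-fold higher in replicate 1, and 1 clock gene with that direction had bounds apart, because Npas2 lay under that minimum. The log2 ratio of Per1 to Per2 was 1.12 by kallisto. Of the other alternatives for counts, shares and ratios 51 stayed within the set limits, and of those for single genes 127 stayed and 35 moved. Staying within the limits did not exclude a change of sign. The log2 ratio of Dbp to Arntl was 0.60 without replicate 1 and -0.41 without replicate 2. The median log2 difference of the clock genes was -0.05 in TPM and 0.10 with TMM factors. Clock genes higher in replicate 2 numbered 4, and 6 with TMM factors. TPM rescaled to coding genes raised all levels, Per1 to 113.9. With 2 libraries no paired analysis was possible because there was 1 group. Counts of 41 and 33 limit Ciart, and those of 237 and 142 limit Npas2.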
